A study of Homo sapiens with 16 samples.

Results

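The comparison described here is that of BMAL1 knockout (KO) with wild type (WT) MDA-MB-231 cells, both under doxorubicin. MDA-MB-231 is a human breast cancer cell line of the triple-negative type, in long use. The KO group (BMAL1 -/-, doxorubicin) and the WT group (doxorubicin) held 2 libraries each, which the labels call biological replicates, of cells at passages 10 to 15. Both groups received the drug, while the labels do not state its dose or duration. The labels name no clone, guide or method of editing, so an effect of the deletion and a difference between separately grown lines cannot be told apart. These 4 samples are part of a series of 16, in which the same genotypes were also left untreated or given cisplatin or tunicamycin. Expression is given as FPKM, a fragment count scaled to transcript length and sequencing depth, with 1 pooled value for each group. A gene was included when it had 5 FPKM or more in the KO or the WT group, which held for 6412 of 60658 genes. Of these, 5482 reached 5 FPKM in both groups, 414 in KO alone and 516 in WT alone. Among the genes close to that bound were RALGDS, inside it with 2.27 FPKM in KO and 5.003 FPKM in WT, and TMEM150A, outside it with 4.996 FPKM in KO and 1.26 FPKM in WT.

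BMAL1, encoded by ARNTL, is the transcription factor that pairs with CLOCK or its paralog NPAS2, binds E-box sequences and switches on the genes of the circadian clock. Among them are the PER and CRY repressors, which close the loop, and the nuclear receptors NR1D1 and NR1D2 (REV-ERB alpha and beta), which repress ARNTL in turn. Doxorubicin is an anthracycline: it intercalates into DNA, traps topoisomerase II on broken DNA, and gives rise to reactive oxygen through redox cycling of its quinone. Cells handle the drug by exporting it through ABC transporters and by reducing it with carbonyl and aldo-keto reductases, and many of them die by apoptosis.

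A gene is said to be called when the authors tested it with Cuffdiff and their q-value, adjusted over all tested genes, was at most 0.05. Values per library were not given, so no spread between the replicates can be shown, and the deposited test is the one measure that uses them. Ratios are log2 of KO over WT after adding 1 FPKM to each, which understates the change of low genes. The summed FPKM was 949136 in KO and 820675 in WT, of which genes of the mitochondrial genome made up 11.1% and 17.0%. Without the mitochondrial genes, the KO sum still includes AC006115.1, a very high gene that was not called and is described under other observations. Setting both groups to one sum without the mitochondrial genes moves the ratios of abundant genes by -0.31. Low genes move by less because of the added 1 FPKM. For most lists the counts after that step stand beside those as deposited where they differ. The test was not redone: such counts take the genes called as deposited and give their direction after the step. As no library totals are known, the depth behind the values is unknown. In bulk RNA, fewer cells of a type and less RNA per cell cannot be told apart. Of the 8 genes that mark the line, 8 had 1 FPKM or more in KO and 7 in WT, with summed levels of 13486 FPKM in KO and 13853 FPKM in WT. All 8 were tested, and 3 were called higher and 4 lower in KO, so the similar sums hide differences of single genes. Markers of luminal epithelium, fibroblasts, leukocytes and endothelium summed to 3.67 to 14.2 FPKM in KO and 1.04 to 8.57 FPKM in WT. Few of these markers could be tested. Of the fibroblast markers 2 of 2 tested were called higher in KO, of the leukocyte markers 1 of 2, of the endothelial markers 2 of 2, and none was called lower, while 1 of 2 tested luminal markers was called lower. Listed at 0 in both groups were DCN and LUM (fibroblast), CD3E and MS4A1 (leukocyte) and PGR (luminal), and PTPRC (CD45) was at 0 in KO. The part of other cell types in the results was not tested.

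ARNTL (chromosome 11, 13276652 to 13387266, plus strand, GRCh38, whole gene) had 0.474 FPKM in KO and 1.31 FPKM in WT. The transcript was therefore still detected in the KO group, at a level under the bound of 5 FPKM in both. In the authors' deposited table the difference was called, with a Cuffdiff q of 0.00509. The deposited log2 ratio was -1.47, without the 1 FPKM added to the other ratios here. Which exon was edited is not stated, so the level of the whole gene is a limited check of the knockout.

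The clearest change within the clock was in NR1D2 (chromosome 3, 23945260 to 23980618, plus strand), the only clock repressor or output gene that passed 5 FPKM and was called lower. It had 0.676 FPKM in KO and 6.57 FPKM in WT. Its relative NR1D1 was also called lower at low levels, with 0.470 FPKM in KO and 0.912 FPKM in WT. CSNK1D, a kinase of PER proteins, was called higher with 16.7 FPKM in KO and 10.5 FPKM in WT. Its exons overlap those of SLC16A3 on the opposite strand, which had 462 FPKM in KO and 374 FPKM in WT, so its value is uncertain. Of 18 repressor and output genes, 11 were tested, with 2 called higher and 2 lower. The share called, 36.4%, was below the 45.1% of all tested genes.

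Other members of the clock were called in either direction, not called or not tested. CRY1 had 7.02 FPKM in KO and 6.85 FPKM in WT, and TIMELESS had 21.9 FPKM in KO and 21.2 FPKM in WT; neither was called. PER1 had 1.69 FPKM in KO and 1.17 FPKM in WT and was not called either. PER2, CRY2, CIART, TEF, HLF and BHLHE40 were all under 0.6 FPKM in both groups and were not tested under doxorubicin. In the positive arm, NPAS2 was called higher with 33.1 FPKM in KO and 22.3 FPKM in WT. ARNTL2, a paralog of ARNTL, was called lower with 12.5 FPKM in KO and 16.7 FPKM in WT. CLOCK had 1.20 FPKM in KO and 1.41 FPKM in WT, and RORA, an activator of ARNTL, had 0.436 FPKM in KO and 1.25 FPKM in WT; neither was called.

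Promoters of clock genes are shown because BMAL1 acts through the E-box CACGTG, set in capitals below. The sequences are from RefSeq (GRCh38.p14), 5′ to 3′ on the strand of the gene, and a promoter is taken as the 300 bases from 250 before the transcription start to 50 after it. NR1D2 is shown whole (chr3:23945871-23946170, plus strand), and PER1 (within chr17:8152355-8152654, minus strand), CIART (within chr1:150282304-150282603, plus strand) and BHLHE40 (within chr3:4979187-4979486, plus strand) as the E-box with up to 20 bases on each side.
NR1D2: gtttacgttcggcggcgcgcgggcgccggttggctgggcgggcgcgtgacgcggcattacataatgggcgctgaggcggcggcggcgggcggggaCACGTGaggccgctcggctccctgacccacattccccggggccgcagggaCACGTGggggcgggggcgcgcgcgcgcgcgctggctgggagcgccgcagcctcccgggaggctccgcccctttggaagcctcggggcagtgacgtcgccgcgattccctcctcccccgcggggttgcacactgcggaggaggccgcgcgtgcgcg
PER1: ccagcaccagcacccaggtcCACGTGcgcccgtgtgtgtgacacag
CIART: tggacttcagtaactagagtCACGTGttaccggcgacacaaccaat
BHLHE40: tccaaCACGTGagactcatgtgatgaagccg

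The NR1D2 promoter held the E-box at 2 places and that of CIART at 3. The motif, which reads the same on both strands, was present in 7 of 15 clock repressor and output genes with a promoter in the table. Across the 8663 tested genes with a promoter it was present in 12.8%. It was found in 12.98% of genes called higher in KO, 13.24% of genes called lower and 12.5% of those not called, and in 7.26% of all 35116 promoters. The share was thus close to the same whatever the call. A match is a run of letters in this window and not a measured binding site.

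Across all genes, 5348 of 11856 tested (45.1%) were called, 2890 (24.4%) higher and 2458 (20.7%) lower in KO. After setting equal sums, without a new test, 2265 of these calls were higher and 3083 lower. Among the 6396 genes of 5 FPKM or more that were tested, 4089 (63.9%) were called, 2362 (36.9%) higher and 1727 (27.0%) lower in KO. Most of these differences were small: 3538 were under 2-fold, while 258 (4.03%) were 2-fold or more higher and 293 (4.58%) 2-fold or more lower. Changes of 4-fold or more numbered 61 higher and 42 lower. The balance of directions depends on the scaling, since 57.8% of the calls in this set were higher as deposited and 42.5% after both groups were set to one sum. The other 16 genes were not tested. They were mostly small RNAs listed at 0 in 1 group, such as MIR210, listed at 0 in KO and at 7.83 FPKM in WT.

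**Figure D1:**
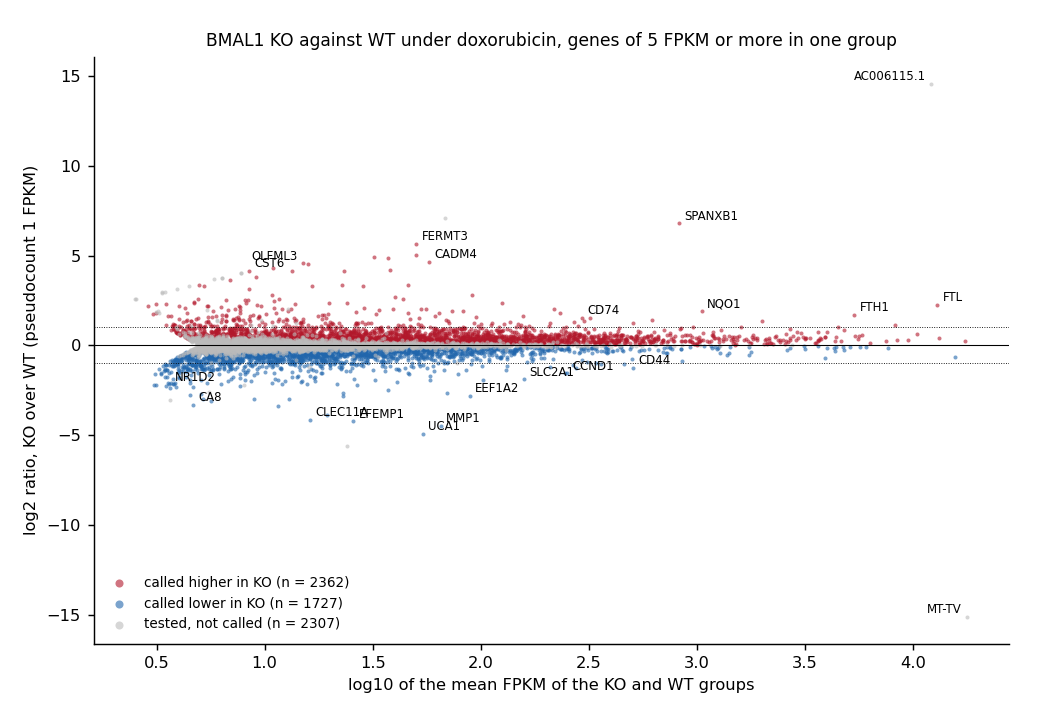
Log2 ratio of KO over WT (pseudocount 1 FPKM) against log10 of the mean FPKM of both doxorubicin groups, 1 point a gene, for the 6396 tested genes of 5 FPKM or more in one group. Red points (2362) were called higher in KO, blue points (1727) lower, and grey points (2307) were not called; dotted lines mark 2-fold. AC006115.1 (24196 FPKM in KO, listed at 0 in WT) and MT-TV (listed at 0 in KO, 35600 FPKM in WT) lie farthest out and were not called.

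How often a gene was called followed its level, and the median ratio as deposited stood apart in the most abundant genes. The tested genes were divided by mean FPKM into 5 groups of equal size. In the lowest group 18.3% were called with a median log2 ratio of 0.0096, and in the highest group 81.3% with a median of 0.17. The 3 groups between had medians of -0.025, -0.044 and 0.016. Of 1141 genes with a mean of 100 FPKM or more, 1001 (87.7%) were called, 761 (66.7%) higher and 240 (21.0%) lower in KO as deposited. By transcript length, the median was 0.071 in the group of the shortest genes and -0.075 in that of the longest. These figures are the background for lists of abundant or long genes. Where a list below is given without its share called, its counts stand against 45.1% of all tested genes. Among tested genes of 5 FPKM or more that share was 63.9%.

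**Figure D2:**
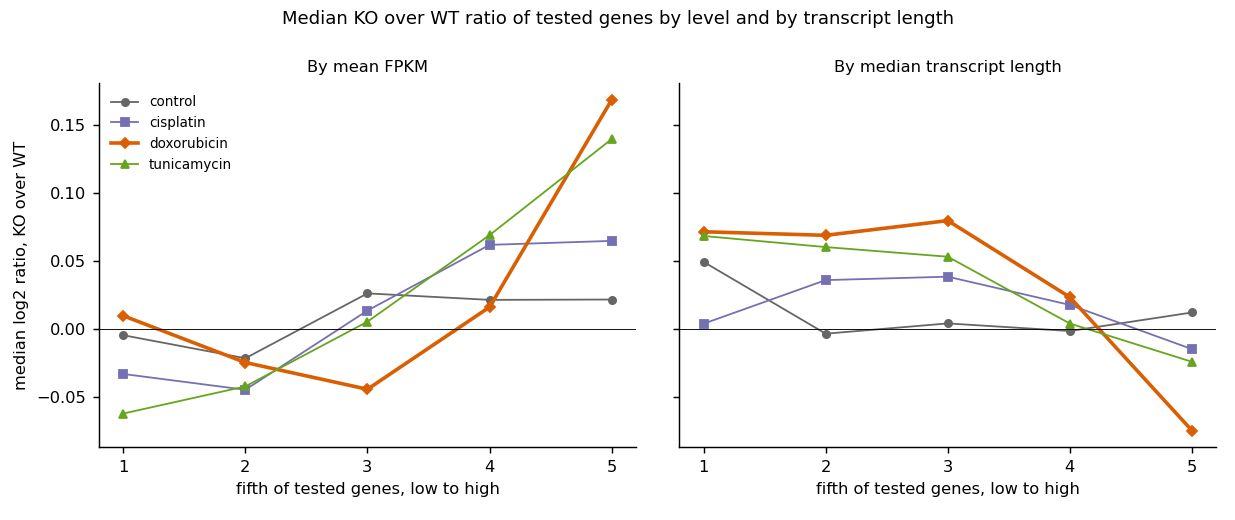
Median log2 ratio of KO over WT in 5 groups of equal size of the tested genes, by mean FPKM (left) and by median transcript length (right), 1 line for each of the 4 treatments. Under doxorubicin (thick line) the median is 0.17 in the group of highest level and -0.075 in that of longest transcripts.

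Among called genes, the largest increase was that of SPANXB1, a cancer-testis antigen of the SPANX family on the X chromosome, otherwise made in developing sperm. It had 1637 FPKM in KO and 13.8 FPKM in WT, a log2 ratio of 6.79. The copies SPANXA2 (62.8 FPKM in KO, 1.12 FPKM in WT), SPANXC (73.1 FPKM in KO, 1.52 FPKM in WT) and SPANXD (17.8 FPKM in KO, 0.369 FPKM in WT) were called higher too. The family is nearly identical in sequence, which makes the split of fragments between copies uncertain to different degrees. Of the stretches of 100 bases in its annotated transcripts, SPANXA2 shared 100% with other genes, SPANXC 55.9%, SPANXD 38.9% and SPANXB1 1.08%. The large value of SPANXB1 thus rests mostly on sequence of its own, and that of SPANXA2 cannot be told from its copies.

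Among the other genes of the 15 with the largest called increase were adhesion, secreted and enzyme genes. FERMT3 (kindlin-3), an activator of integrins in blood cells, had 99.8 FPKM in KO and 0.999987 FPKM in WT. It overlaps exons of TRPT1 on the opposite strand, which had 11.5 FPKM in KO and 9.87 FPKM in WT. CADM4, a cell adhesion molecule of the immunoglobulin family, had 112 FPKM in KO and 3.46 FPKM in WT. OLFML3, a secreted olfactomedin-like protein, had 29.9 FPKM in KO and 0.305 FPKM in WT. KYNU, the kynureninase of tryptophan breakdown, had 31.2 FPKM in KO and 0.407 FPKM in WT. GFPT2, an enzyme at the entry to hexosamine synthesis, had 73.0 FPKM in KO and 3.12 FPKM in WT.

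Inhibitors of proteases and a muscle actin stood in the same group. TIMP4, an inhibitor of matrix metalloproteinases, had 45.1 FPKM in KO and 1.66 FPKM in WT, and CST6 (cystatin E/M), an inhibitor of cysteine proteases, had 16.9 FPKM in KO and was listed at 0 in WT. EBI3, a subunit of interleukin-27 and interleukin-35, had 26.2 FPKM in KO and 0.553 FPKM in WT. The calcium channel subunit CACNA2D4 had 21.8 FPKM in KO and 0.157 FPKM in WT. ACTG2, an actin of smooth muscle, had 13.7 FPKM in KO and 0.166 FPKM in WT. The long noncoding RNA MIR3681HG, the host gene of a microRNA, had 98.3 FPKM in KO and 2.03 FPKM in WT.

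Among called genes, the largest decrease was that of UCA1 (chromosome 19, 15828206 to 15836326, plus strand), a long noncoding RNA first described in bladder cancer. It had 2.45 FPKM in KO and 105 FPKM in WT, a log2 ratio of -4.94. MMP1 (chromosome 11, 102789920 to 102798160, minus strand), the interstitial collagenase, fell to 4.68 FPKM in KO, against 126 FPKM in WT. EFEMP1 (fibulin-3), a matrix glycoprotein, fell to 1.68 FPKM in KO, against 49.6 FPKM in WT. CLEC11A, a secreted lectin-like growth factor, fell to 0.837 FPKM in KO, against 31.5 FPKM in WT. STOM (stomatin), a membrane scaffold protein, fell to 1.62 FPKM in KO, against 37.4 FPKM in WT. The matricellular protein NOV (CCN3) had 1.19 FPKM in KO and 21.9 FPKM in WT.

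Surface, transport and metabolic genes followed. CD24, a surface glycoprotein used with CD44 to grade breast cancer cells, had 1.21 FPKM in KO and 16.6 FPKM in WT. The receptor NEO1 (neogenin) had 0.394 FPKM in KO and 10.9 FPKM in WT. GLUL, glutamine synthetase, had 4.87 FPKM in KO and 41.3 FPKM in WT. EEF1A2, a translation elongation factor, had 21.7 FPKM in KO and 156 FPKM in WT. SPNS2, the exporter of sphingosine-1-phosphate, had 0.424 FPKM in KO and 8.63 FPKM in WT, and overlaps exons of MYBBP1A, which had 30.3 FPKM in KO and 21.96 FPKM in WT. CA8 (0.031 FPKM in KO, 9.31 FPKM in WT), DMTN (2.14 FPKM in KO, 23.6 FPKM in WT) and LINC00707 (0.398 FPKM in KO, 9.94 FPKM in WT) were called lower too. EFEMP1, STOM, CA8 and DMTN lie in windows of 10 Mb whose tested genes had median log2 ratios of -0.33, -0.34, -0.45 and -0.57, far smaller than their own.

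**Figure D3:**
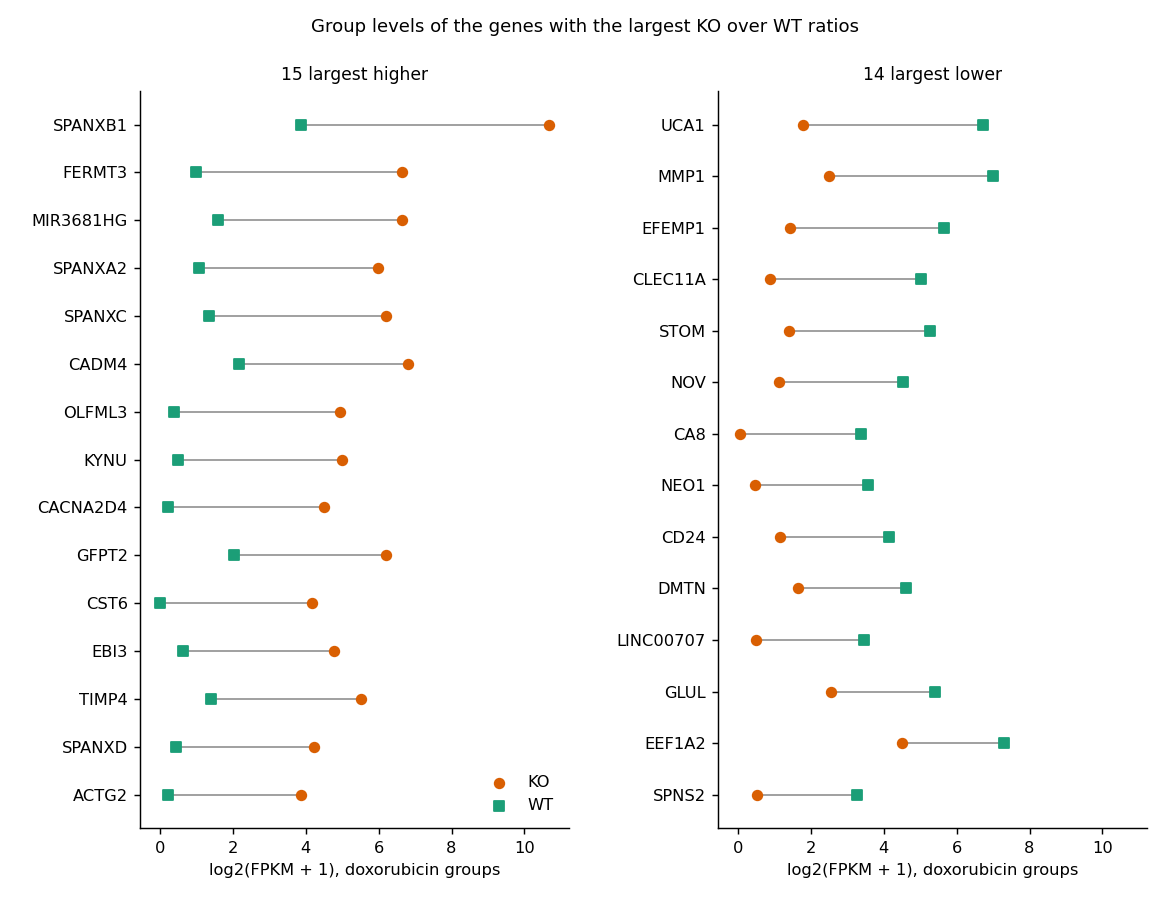
Levels of the 15 genes with the largest called increases (left) and the 14 with the largest called decreases (right) under doxorubicin, as log2(FPKM + 1). Circles are the KO group and squares the WT group, 1 pooled value of 2 libraries each; SPANXB1 spans 1637 FPKM in KO and 13.8 FPKM in WT, and UCA1 2.45 FPKM in KO and 105 FPKM in WT.

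Genes that act on doxorubicin itself were mostly higher in KO. Of 20 tested genes of anthracycline export and reduction, 14 were called higher and 1 lower (12 and 3 after setting equal sums). The median log2 ratio was 0.52 beside 0.03 for all tested genes, and 75.0% were called beside 45.1%. The list leaned the same way without the drug, with 11 higher and 2 lower and a median of 0.61 in control. Under tunicamycin the calls were 12 and 2 (median 0.47), and under cisplatin 10 and 5 (median 0.099). AKR1C1, an aldo-keto reductase, had 13.1 FPKM in KO and 2.06 FPKM in WT. AKR1B1, aldose reductase, had 473 FPKM in KO and 167 FPKM in WT. NQO1, the quinone reductase, had 1671 FPKM in KO and 439 FPKM in WT. Among the exporters, ABCC3 had 16.4 FPKM in KO and 2.84 FPKM in WT. CBR4, a mitochondrial carbonyl reductase, was the member called lower, with 2.68 FPKM in KO and 5.13 FPKM in WT. ABCB1 (P-glycoprotein), the best known exporter of anthracyclines, was listed at 0 in KO and at 0.044 FPKM in WT and was not tested.

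The genes of topoisomerase II, which the drug traps, were called lower, while TOP1 was called higher. Of the 12 topoisomerase and related repair genes 41.7% were called, beside 45.1% of all tested genes. TOP2A, the form of dividing cells, had 42.8 FPKM in KO and 51.9 FPKM in WT, and TOP2B had 19.3 FPKM in KO and 24.2 FPKM in WT; both were called lower. TOP1, which relaxes DNA by cutting a single strand, was called higher with 78.7 FPKM in KO and 38.2 FPKM in WT. TDP1 (6.12 FPKM in KO, 3.91 FPKM in WT) and TDP2 (15.7 FPKM in KO, 10.6 FPKM in WT), which clear trapped topoisomerase I and II from DNA ends, were called higher. The other 7 of the 12 genes were not called, among them MRE11A (7.29 FPKM in KO, 7.72 FPKM in WT) and RBBP8 (18.7 FPKM in KO, 18.5 FPKM in WT), which process such ends.

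Target genes of NRF2, the factor that answers oxidative stress, were higher in KO for the greater part. Of 23 tested genes of iron storage, NADPH supply and thiol defence, 13 were called higher and 3 lower (12 and 4 after setting equal sums). The median log2 ratio was 0.57. The share called, 69.6%, stands beside 45.1% of all tested genes. The 2 ferritin chains stood out by their level: FTL had 21375 FPKM in KO and 4453 FPKM in WT, and FTH1 had 8171 FPKM in KO and 2503 FPKM in WT. Called lower were SRXN1 (sulfiredoxin), with 8.49 FPKM in KO and 12.5 FPKM in WT, GCLM, a subunit of the enzyme that starts glutathione synthesis, with 12.3 FPKM in KO and 16.8 FPKM in WT, and TXN (thioredoxin), with 903 FPKM in KO and 946 FPKM in WT. NQO1 and ABCC3 belong to this list as well as to the one before it. HMOX1, heme oxygenase, had 0.936 FPKM in KO and 0.825 FPKM in WT and was not called.

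DNA repair genes called under doxorubicin were few and mostly higher. Of 30 tested genes of double-strand break repair and damage signalling 9 (30.0%) were called, beside 45.1% of all tested genes, with 8 higher and 1 lower (6 and 3 after setting equal sums). Among those higher were XRCC3, which acts in homologous recombination, with 7.59 FPKM in KO and 4.41 FPKM in WT, and XRCC5 (Ku80), with 239 FPKM in KO and 192 FPKM in WT. XRCC3 overlaps exons of KLC1 on the opposite strand, which had 34.9 FPKM in KO and 27.5 FPKM in WT. BARD1, the partner of BRCA1, was the one called lower, with 0.258 FPKM in KO and 1.34 FPKM in WT.

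Target genes of p53 were called lower more often than higher, 7 against 3 of 21 tested, with the same counts after setting equal sums. The share called, 47.6%, was close to the 45.1% of all tested genes, and without members in windows of shifted median the calls were 5 lower and 3 higher. MDA-MB-231 cells carry mutant p53. CDKN1A (p21), the inhibitor that halts the cycle after damage, had 15.4 FPKM in KO and 24.0 FPKM in WT. GADD45A had 3.32 FPKM in KO and 6.75 FPKM in WT, and the nucleotide excision repair gene XPC had 0.840 FPKM in KO and 1.83 FPKM in WT. CCNG1 (cyclin G1) went the other way, with 28.6 FPKM in KO and 14.1 FPKM in WT. MDM2, the ubiquitin ligase of p53, had 1.23 FPKM in KO and 0.703 FPKM in WT and was not called.

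Of the BCL2 family, 13 of 20 genes were tested, with 3 called higher and 3 lower (2 higher and 4 lower after setting equal sums). The share called, 46.2%, was close to the 45.1% of all tested genes. BID, which links death receptors to mitochondria, had 141 FPKM in KO and 81.0 FPKM in WT. The sensitizer BAD had 70.1 FPKM in KO and 54.2 FPKM in WT, and overlaps exons of GPR137 on the opposite strand (79.5 FPKM in KO, 58.1 FPKM in WT). BCL2L1 (BCL-XL), which protects cells, had 20.2 FPKM in KO and 26.9 FPKM in WT. BNIP3L, a receptor for removal of mitochondria, had 25.2 FPKM in KO and 45.1 FPKM in WT, in a window with a median of -0.57. The pore former BAX (212 FPKM in KO, 204 FPKM in WT) and the protector MCL1 (2.28 FPKM in KO, 2.07 FPKM in WT) were not called. The BH3-only genes PMAIP1 (7.11 FPKM in KO, 8.63 FPKM in WT) and BCL2L11 (0.541 FPKM in KO, 0.730 FPKM in WT) were not called either. BCL2 and BBC3 were under 0.3 FPKM in both groups and were not tested.

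Death receptor genes were called in both directions, with 5 of 15 tested members higher and 3 lower. The share called was 53.3%, beside 45.1% of all tested genes. TNFRSF12A (Fn14), the receptor of TWEAK, fell to 4.45 FPKM in KO, against 20.3 FPKM in WT. TNFRSF10B (DR5), a receptor of TRAIL, fell to 12.7 FPKM in KO, against 25.6 FPKM in WT, and FAS fell to 0.405 FPKM in KO, against 1.07 FPKM in WT. TNFRSF10D, a decoy receptor of TRAIL on the same arm of chromosome 8 as TNFRSF10B, rose to 59.0 FPKM in KO, against 45.0 FPKM in WT, although the window of both had a median of -0.57. TNFRSF11B (osteoprotegerin), another decoy, rose to 4.42 FPKM in KO, against 0.556 FPKM in WT, and CASP8, the initiator caspase, to 2.64 FPKM in KO, against 0.999 FPKM in WT. Among caspases, the apoptosome and IAPs 4 of 15 tested genes (26.7%) were called, beside 45.1% of all tested genes. CASP4, an inflammatory caspase, was higher with 27.0 FPKM in KO and 13.4 FPKM in WT, and the inhibitor BIRC3 was lower with 0.276 FPKM in KO and 1.48 FPKM in WT.

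Genes of mitosis that were called were mostly lower in KO. Of 28 tested genes of G2/M and the spindle, 12 were called lower and 2 higher, with a median log2 ratio of -0.21 (13 lower and 1 higher after setting equal sums). The other 14 were not called, and the share called, 50%, was close to the 45.1% of all tested genes. CENPF, a kinetochore protein, fell to 3.07 FPKM in KO, against 9.17 FPKM in WT. ECT2, which drives the closing furrow, fell to 14.2 FPKM in KO, against 30.8 FPKM in WT, and the checkpoint kinase gene BUB1 to 7.81 FPKM in KO, against 15.0 FPKM in WT. TPX2, a spindle assembly factor, was called higher with 33.8 FPKM in KO and 27.0 FPKM in WT. S-phase genes were split, with 11 called higher and 11 lower of 31 tested (5 higher and 17 lower after setting equal sums). The sliding clamp PCNA had 59.4 FPKM in KO and 121 FPKM in WT, and RRM2, a subunit of ribonucleotide reductase, had 131 FPKM in KO and 212 FPKM in WT. RFC3, a clamp loader subunit, had 16.5 FPKM in KO and 10.9 FPKM in WT, and lies on chromosome 13 in a window with a median of 0.55.

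Among G1 regulators, calls numbered 7 higher and 4 lower of 15 tested (6 and 5 after setting equal sums). CCND1 (cyclin D1) fell to 127 FPKM in KO, against 374 FPKM in WT. CDK4, its kinase, had 208 FPKM in KO and 158 FPKM in WT. The inhibitors CDKN2C (21.2 FPKM in KO, 12.2 FPKM in WT) and CDKN1B (3.71 FPKM in KO, 1.99 FPKM in WT) were called higher. MYC was called higher with 7.41 FPKM in KO and 4.04 FPKM in WT. RB1, the retinoblastoma gene, had 44.0 FPKM in KO and 21.7 FPKM in WT, in a chromosome 13 window whose median was 0.84. Clustered histone genes, whose mRNAs lack a poly(A) tail, were called lower in 1 of 11 tested (9.09%) and higher in none, beside 45.1% of all tested genes called.

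Antigen presentation genes had a median log2 ratio of 0.77 (0.46 after setting equal sums). Of 28 tested, 24 were called higher in KO and none lower (23 higher and 1 lower after setting equal sums). The share called, 85.7%, stands beside 45.1% of all tested genes. The members had a median level of 36.2 FPKM, and of the fifth of tested genes with the highest levels 81.3% were called. The share called was thus close to that of abundant genes, while the calls as deposited went in 1 direction. The list spans the whole path from peptide to surface. The class I heavy chain HLA-B had 491 FPKM in KO and 304 FPKM in WT, and the class I chain HLA-G had 22.4 FPKM in KO and 10.7 FPKM in WT. In class II, the invariant chain CD74 had 438 FPKM in KO and 152 FPKM in WT, and HLA-DRA (chromosome 6, 32439842 to 32445046, plus strand) had 14.6 FPKM in KO and 4.16 FPKM in WT. HLA-DMA, which loads peptide on class II, had 10.3 FPKM in KO and 2.48 FPKM in WT. PSMB10, a catalytic subunit of the immunoproteasome, had 77.2 FPKM in KO and 26.02 FPKM in WT.

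The exceptions in that list were few. HLA-E (135 FPKM in KO, 131 FPKM in WT), HLA-DMB (1.10 FPKM in KO, 0.597 FPKM in WT), the peptide trimmer ERAP2 (2.78 FPKM in KO, 1.58 FPKM in WT) and NLRC5, the activator of class I genes (1.80 FPKM in KO, 1.08 FPKM in WT), were not called. CIITA, the activator of class II genes, was at 0.154 FPKM in KO and 0.136 FPKM in WT and was not tested. None of the tested members lies in a window with a shifted median. Annotated HLA transcripts shared at most 6.63% of their 100-base stretches with other genes, while the cells' own HLA alleles may differ from the annotated ones.

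Promoters of presentation genes called higher are shown for the Y box, CTGATTGG or CCAATCAG on the other strand, which binds NF-Y in the promoters of MHC genes and is set in capitals. The sequences are from RefSeq (GRCh38.p14), 5′ to 3′ on the strand of the gene, with 20 bases on each side. They come from HLA-DMA (within chr6:32953048-32953347, minus strand), HLA-DRB1 (within chr6:32589799-32590098, minus strand), HLA-B (within chr6:31357130-31357429, minus strand), HLA-C (within chr6:31272043-31272342, minus strand) and B2M (within chr15:44711267-44711566, plus strand).
HLA-DMA: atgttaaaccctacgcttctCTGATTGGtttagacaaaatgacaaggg
HLA-DRB1: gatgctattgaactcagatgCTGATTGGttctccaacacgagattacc
HLA-B: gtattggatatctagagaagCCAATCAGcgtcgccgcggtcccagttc
HLA-C: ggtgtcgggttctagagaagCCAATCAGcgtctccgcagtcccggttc
B2M: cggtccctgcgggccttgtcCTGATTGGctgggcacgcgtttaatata

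The Y box was present in 8 of 25 presentation genes with a promoter in the table and in 3.97% of all promoters. Among tested genes it was found in 6.27% of those called higher, 6.78% of those called lower and 6.16% of those not called. The interferon element, taken as GAAA repeated after any 2 bases and searched on both strands, was present in 11 of the 25, in 17 of 24 interferon-stimulated genes and in 3.57% of all promoters. That element was found in 4.04% of genes called higher in KO and 3.57% of those called lower, so neither motif set the calls apart at large.

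Interferon-stimulated genes as a whole did not share that direction. Of 31 tested, 9 were called higher and 9 lower. BST2 (tetherin), which holds budding viruses at the membrane, had 19.5 FPKM in KO and 2.66 FPKM in WT. GBP1, a guanylate-binding protein, had 7.56 FPKM in KO and 0.995 FPKM in WT, and IRF7 had 31.1 FPKM in KO and 16.1 FPKM in WT. IFIT1, which binds foreign RNA ends, had 6.21 FPKM in KO and 12.6 FPKM in WT, and IFI27 had 1.83 FPKM in KO and 6.84 FPKM in WT. The RNA sensor DDX58 (RIG-I) had 0.946 FPKM in KO and 3.16 FPKM in WT, its window having a median of -0.30.

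Cytokines were split too, with 6 higher and 6 lower of 17 tested. IL1B rose to 8.58 FPKM in KO, against 0.815 FPKM in WT, CXCL1 to 2.76 FPKM in KO, against 0.552 FPKM in WT, and CXCL3 to 5.45 FPKM in KO, against 2.09 FPKM in WT. IL24 fell to 0.499 FPKM in KO, against 6.81 FPKM in WT, and CXCL8 (interleukin-8) to 8.46 FPKM in KO, against 17.5 FPKM in WT. IL6 fell to 2.16 FPKM in KO, against 6.84 FPKM in WT, in a chromosome 7 window whose median was -0.65. Among NF-kB subunits and feedback genes 2 were called higher and 3 lower of 14 tested (35.7%, beside 45.1% of all tested genes). SOD2 (56.5 FPKM in KO, 101 FPKM in WT, in a window at -0.34) and NFKB2 (36.2 FPKM in KO, 44.4 FPKM in WT) were lower. The kinase IKBKE (8.59 FPKM in KO, 5.403 FPKM in WT) was higher.

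Genes of sterol and fatty acid synthesis were mostly higher in KO, with 18 of 27 tested called higher and 4 lower (17 and 5 after setting equal sums). The median was 0.42. The share called, 81.5%, stands beside 45.1% of all tested genes. ELOVL6, a fatty acid elongase, had 12.2 FPKM in KO and 2.30 FPKM in WT. SCD, the stearoyl desaturase, had 72.7 FPKM in KO and 33.2 FPKM in WT. SREBF2, the factor that switches on sterol synthesis, had 70.8 FPKM in KO and 34.2 FPKM in WT. SREBF1, the factor of fatty acid synthesis, was called lower with 24.3 FPKM in KO and 34.9 FPKM in WT.

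Genes of glycolysis and glucose transport were called in both directions. ALDOC had 18.3 FPKM in KO and 3.66 FPKM in WT, PKM 5002 FPKM in KO and 3013 FPKM in WT, and GAPDH 12622 FPKM in KO and 8247 FPKM in WT. SLC2A1 (GLUT1), the main glucose transporter, fell to 66.3 FPKM in KO, against 249.9 FPKM in WT, and HK2, hexokinase 2, to 1.36 FPKM in KO, against 3.69 FPKM in WT. In all, 15 of the 25 tested were higher and 6 lower, which becomes 8 higher and 13 lower after setting equal sums. Hypoxia and angiogenesis genes showed no common direction, with 7 higher and 6 lower of 19 tested. CA12, a carbonic anhydrase, had 6.34 FPKM in KO and 1.67 FPKM in WT, and the angiogenesis inhibitor THBS1 had 13.1 FPKM in KO and 26.5 FPKM in WT.

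The most abundant housekeeping groups were called nearly throughout, and their direction rests on the scaling. Of 79 cytosolic ribosomal protein genes, 65 were called higher and 13 lower as deposited. Of these calls, which were not tested anew, 33 were higher and 45 lower after setting equal sums. Standard proteasome subunits gave 24 higher and 5 lower of 31, against 11 higher and 18 lower after setting equal sums, and nuclear complex I subunits 26 higher and 4 lower of 38, against 18 higher and 12 lower. Their medians of 0.29, 0.23 and 0.29 lie close to the shift of 0.31 between the scalings. Within these groups some members departed by far more. NDUFA4 had 32.4 FPKM in KO and 89.6 FPKM in WT, in a chromosome 7 window whose median was -1.02. RPS29 had 6002 FPKM in KO and 2978 FPKM in WT, and the proteasome ATPase PSMC6 had 16.5 FPKM in KO and 35.3 FPKM in WT. Ribosomal protein genes have many processed pseudogenes, so their counts are uncertain. The 13 mRNAs of the mitochondrial genome were called higher in 7 and lower in 6 (2 and 11 after setting equal sums), with MT-CO1 at 15041 FPKM in KO and 11291 FPKM in WT and MT-ND1 at 3906 FPKM in KO and 4835 FPKM in WT.

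Chaperones of the cytosol and the endoplasmic reticulum were more often called higher than lower. Heat shock genes gave 11 higher and 2 lower of 18 tested (8 and 5 after setting equal sums). HSPH1 had 139 FPKM in KO and 60.4 FPKM in WT, in a chromosome 13 window whose median was 0.55, and BAG3, a cochaperone, had 32.6 FPKM in KO and 20.2 FPKM in WT. In the ATF6 and XBP1 branch of the unfolded protein response the calls were 11 higher and 4 lower of 20 tested (9 and 6 after setting equal sums). PDIA4, a disulfide isomerase, had 204 FPKM in KO and 99.7 FPKM in WT, while SYVN1, a ligase of protein disposal, had 2.11 FPKM in KO and 3.99 FPKM in WT. ATF4 targets were split, with 5 higher and 7 lower of 17 (4 and 8 after setting equal sums). MTHFD2, an enzyme of mitochondrial folate metabolism, had 109 FPKM in KO and 57.3 FPKM in WT, and ASNS, asparagine synthetase, had 11.6 FPKM in KO and 17.9 FPKM in WT. Lysosome and autophagy genes gave 11 higher and 15 lower of 30 (7 and 19 after setting equal sums), among them the protease CTSD with 1128 FPKM in KO and 568 FPKM in WT and CTSS with 1.31 FPKM in KO and 4.07 FPKM in WT.

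**Figure D4:**
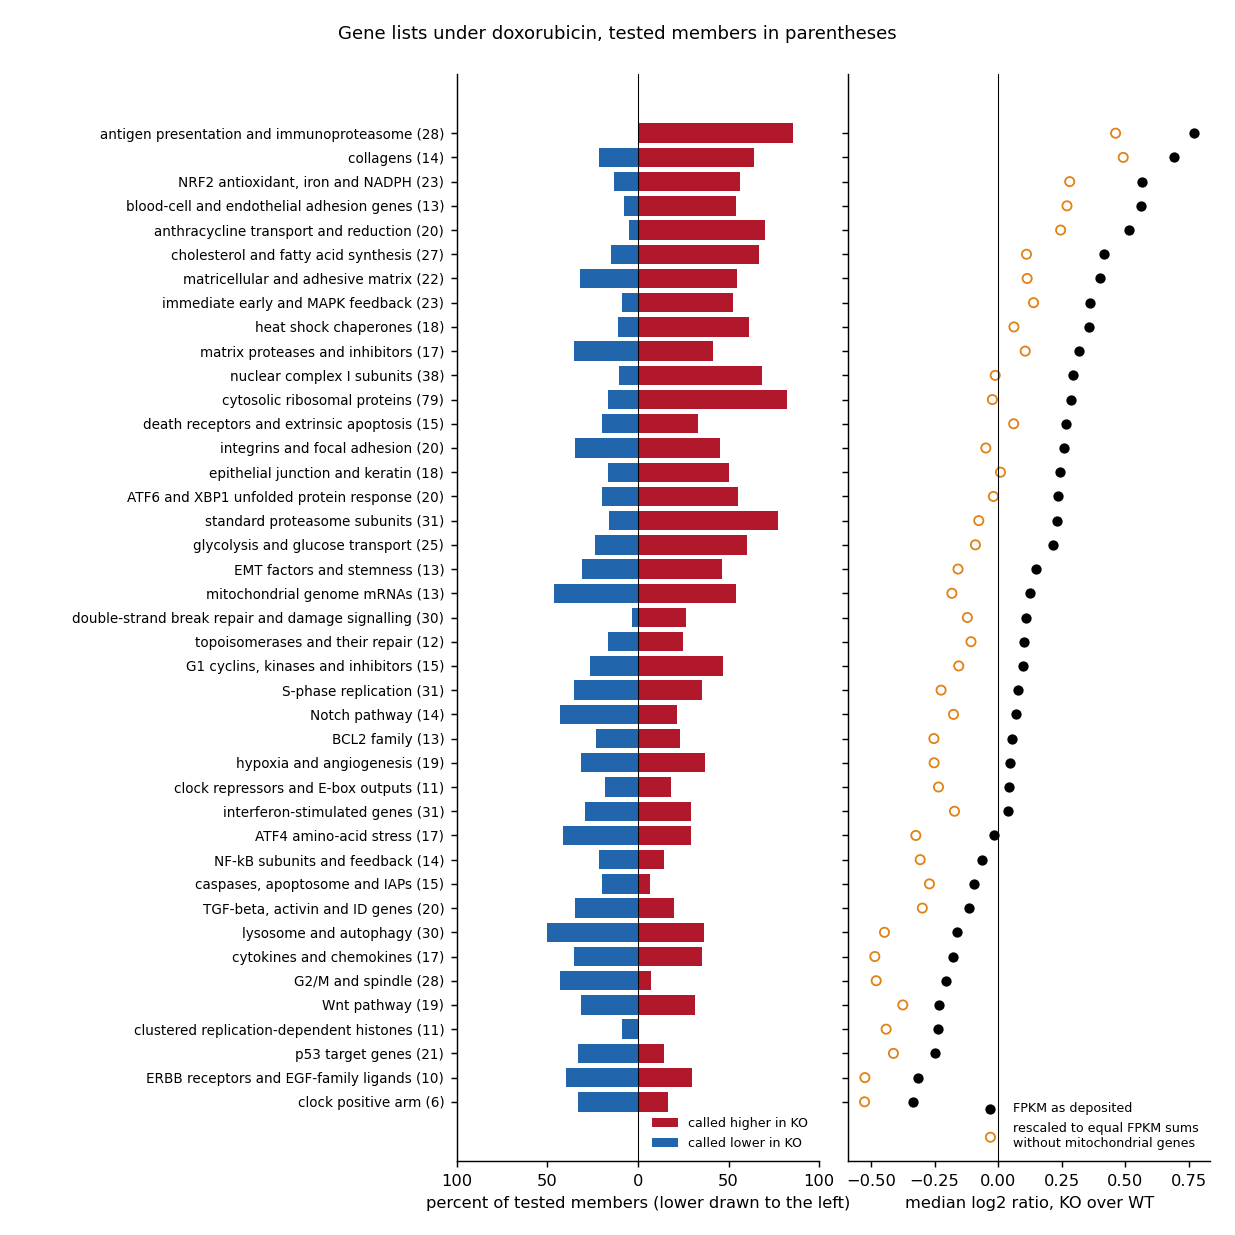
Gene lists under doxorubicin, ordered by median log2 ratio of KO over WT, with the number of tested members in parentheses. Left, percent of tested members called higher (red, to the right) and lower (blue, to the left) in KO; right, the median as deposited (filled) and after setting both groups to one FPKM sum without mitochondrial genes (open), which moves cytosolic ribosomal proteins, for example, to -0.02 as against 0.29.

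Transcripts of matrix proteins were called in both directions, and the matrix itself was not measured. Of 14 tested collagens 9 were called higher and 3 lower, with a median of 0.69 and the same counts after setting equal sums. The median was 0.44 without genes in shifted windows, where 6 were higher and 3 lower, 0.44 at a mean of 5 FPKM or more, and 1.14 with a pseudocount of 0.1. COL6A2 had 70.5 FPKM in KO and 10.1 FPKM in WT, COL6A1 had 131 FPKM in KO and 34.5 FPKM in WT, and COL7A1, the anchoring fibril collagen, had 15.0 FPKM in KO and 1.77 FPKM in WT. The basement membrane chains COL4A1 (54.2 FPKM in KO, 13.3 FPKM in WT) and COL4A2 (237 FPKM in KO, 75.5 FPKM in WT) lie in a chromosome 13 window whose median was 0.72. COL8A1 was called lower with 11.6 FPKM in KO and 23.5 FPKM in WT. Matricellular and adhesive proteins gave 12 higher and 7 lower of 22. SPARC (16.003 FPKM in KO, 0.949 FPKM in WT) and TGFBI (210 FPKM in KO, 39.9 FPKM in WT) were higher, while EFEMP1 and NOV, described above, were lower. Of the 8 fibroblast markers, 2 reached 1 FPKM in KO and 0 in WT, with sums of 3.87 FPKM in KO and 1.04 FPKM in WT. Both that were tested were called higher, DCN, LUM and POSTN were listed at 0 in KO, and COL3A1, DCN, LUM and PDGFRA at 0 in WT. Their part in the matrix results was not tested.

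Proteases, integrins and their partners changed member by member. ADAM8 had 117 FPKM in KO and 29.9 FPKM in WT, and TIMP3 had 72.2 FPKM in KO and 20.2 FPKM in WT. Besides MMP1, the stromelysin MMP3 (0.220 FPKM in KO, 1.73 FPKM in WT) and the plasminogen activator PLAT (34.0 FPKM in KO, 73.8 FPKM in WT) were called lower. Of 17 tested genes in that list 7 were higher and 6 lower. Integrins and focal adhesion genes gave 9 higher and 7 lower of 20 (7 and 9 after setting equal sums). ITGB4 rose to 208 FPKM in KO, against 89.4 FPKM in WT, while ITGA6, its partner in the laminin receptor, fell to 73.5 FPKM in KO, against 189 FPKM in WT. ITGA2, the collagen-binding chain, fell to 2.15 FPKM in KO, against 11.4 FPKM in WT.

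Adhesion genes of blood cells and endothelium were tested in 13 of 26, with 7 called higher and 1 lower. LCP1 (L-plastin) had 42.3 FPKM in KO and 3.22 FPKM in WT, in a chromosome 13 window whose median was 0.84. PECAM1 had 10.3 FPKM in KO and 0.154 FPKM in WT, and TIE1, an endothelial receptor, had 3.41 FPKM in KO and 1.47 FPKM in WT. HCLS1, a substrate of kinases in blood cells, was lower with 0.431 FPKM in KO and 2.81 FPKM in WT. Of the 7 endothelial markers 2 reached 1 FPKM in KO and 1 in WT, with sums of 14.2 FPKM in KO and 1.91 FPKM in WT. Both that were tested were called higher, and TEK was listed at 0 in KO. Of the 8 leukocyte markers 1 reached 1 FPKM in KO and 0 in WT, with sums of 3.90 FPKM in KO and 1.41 FPKM in WT. Of the 2 tested 1 was called higher, PTPRC, CD3E and MS4A1 were listed at 0 in KO, and CD3E and MS4A1 at 0 in WT. The part of such cells in this list was not tested.

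Genes of cell identity gave small and mixed groups. Among EMT and stemness genes 6 of 13 tested were called higher and 4 lower (5 and 5 after setting equal sums). S100A4 rose to 85.9 FPKM in KO, against 20.3 FPKM in WT, and SNAI1 to 4.28 FPKM in KO, against 2.68 FPKM in WT. CD44 fell to 296 FPKM in KO, against 712 FPKM in WT, in a chromosome 11 window whose median was -0.47, and ALDH1A3 to 13.3 FPKM in KO, against 25.0 FPKM in WT. Of 18 tested genes of epithelial junctions and keratins 9 were higher and 3 lower (7 and 5 after setting equal sums). KRT7 had 313 FPKM in KO and 197 FPKM in WT, while DSP (desmoplakin) had 2.03 FPKM in KO and 13.4 FPKM in WT and EPCAM had 2.07 FPKM in KO and 6.33 FPKM in WT.

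In signalling, receptors and antagonists of the TGF-beta family were among the larger decreases. FST (follistatin), which binds activin, fell to 8.75 FPKM in KO, against 44.5 FPKM in WT. TGFBR2 fell to 1.55 FPKM in KO, against 8.61 FPKM in WT, and TGFBR1 to 2.80 FPKM in KO, against 8.07 FPKM in WT, in windows with medians of -0.34 and -0.39. TGFB2 rose to 8.10 FPKM in KO, against 3.88 FPKM in WT, and ID1 to 17.8 FPKM in KO, against 9.45 FPKM in WT, in a list with 4 higher and 7 lower of 20 tested. EGFR fell to 3.74 FPKM in KO, against 12.5 FPKM in WT, and its ligand AREG to 0.496 FPKM in KO, against 1.98 FPKM in WT. NRG1, a ligand of ERBB3 and ERBB4, rose to 10.4 FPKM in KO, against 4.9998 FPKM in WT. The ERBB list had 3 higher and 4 lower of 10 tested.

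Ligands of the Wnt family changed in both directions, with 6 higher and 6 lower of 19 tested in that pathway (5 and 7 after setting equal sums). WNT5A rose to 1.76 FPKM in KO, against 0.0855 FPKM in WT, and WNT7B fell to 1.05 FPKM in KO, against 5.19 FPKM in WT. In the Notch pathway 3 of 14 were higher and 6 lower (2 and 7 after setting equal sums). The ligand JAG1 fell to 1.62 FPKM in KO, against 3.20 FPKM in WT, and NOTCH1 to 1.11 FPKM in KO, against 2.46 FPKM in WT, in a window with a median of -0.34. Immediate early and MAPK feedback genes were called higher in 12 of 23 and lower in 2 (11 and 3 after setting equal sums). The share called was 60.9%, beside 45.1% of all tested genes. Most of them had low levels: 7 of the 23 reached 5 FPKM in a group, and the median level was 2.40 FPKM. JUN had 5.21 FPKM in KO and 2.31 FPKM in WT, and FOSB had 20.6 FPKM in KO and 11.3 FPKM in WT. FOSL1 (FRA1) was the larger of the decreases, with 3.65 FPKM in KO and 9.26 FPKM in WT.

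The same genotypes were compared without drug, under cisplatin and under tunicamycin, in tables that hold no library in common with the doxorubicin one. Of the 258 genes that were 2-fold or more higher in KO under doxorubicin, 228 (88.4%) were called higher in control, 232 (89.9%) in cisplatin and 240 (93.0%) in tunicamycin, and 213 (82.6%) in all 3. Of the 293 that were 2-fold or more lower, 233 (79.5%) were called lower in control, 248 (84.6%) in cisplatin and 252 (86.0%) in tunicamycin, and 203 (69.3%) in all 3. The background of all tested genes was 43.8% called in control (22.7% higher, 21.1% lower), 49.6% in cisplatin (25.4% higher, 24.2% lower) and 49.3% in tunicamycin (27.2% higher, 22.1% lower). The tables were normalized separately, and differences between treatments were not tested.

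The calls of 5 lists in each table are set side by side, with no test between treatments. Antigen presentation had 19 higher and 1 lower without drug, 20 and 2 under cisplatin, 24 and 0 under doxorubicin, and 21 and 1 under tunicamycin. NRF2 targets had 16 and 2, 16 and 4, 13 and 3, and 21 and 0 in that order. G2/M genes had 1 higher and 21 lower without drug, 3 and 23 under cisplatin, 2 and 12 under doxorubicin, and 0 and 26 under tunicamycin. Ribosomal protein genes had 29 higher and 42 lower without drug, 48 and 25 under cisplatin, 65 and 13 under doxorubicin, and 63 and 14 under tunicamycin. The clock repressors and outputs had 8 higher and 1 lower without drug, 8 and 3 under cisplatin, 2 and 2 under doxorubicin, and 8 and 1 under tunicamycin. Fewer of them were tested under doxorubicin, 11 against 15 to 17 elsewhere.

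**Figure D5:**
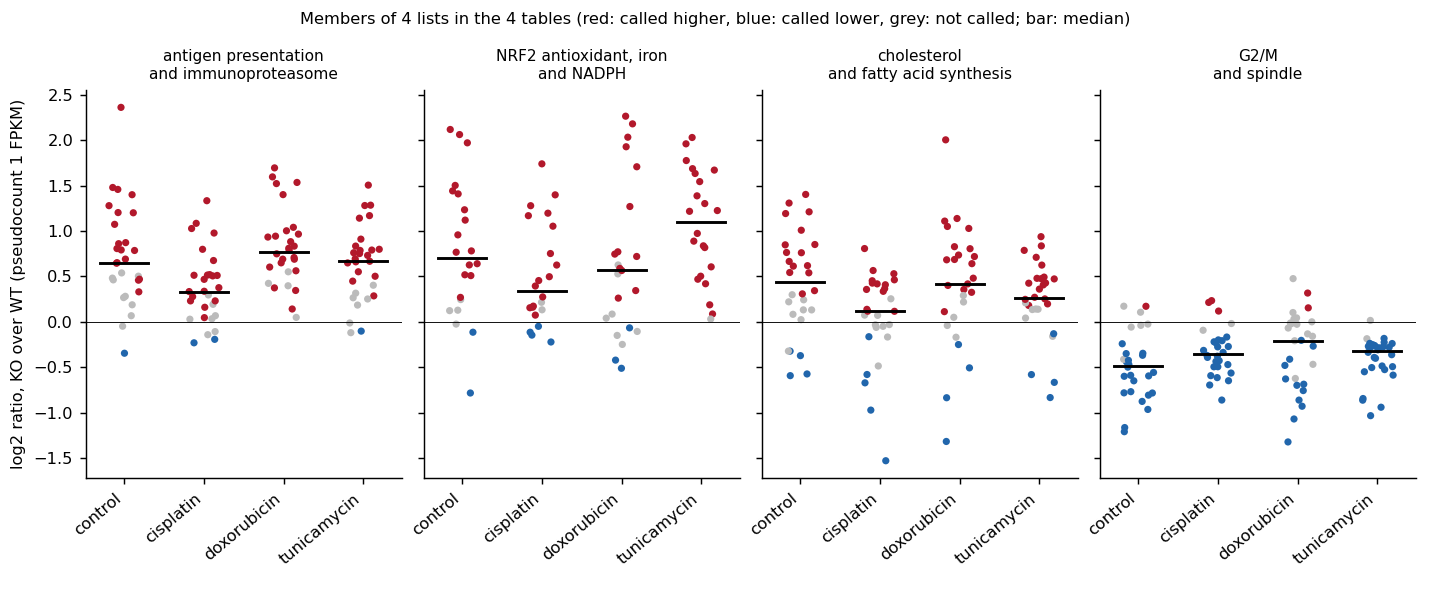
Log2 ratio of KO over WT (pseudocount 1 FPKM) of the tested members of 4 lists in each of the 4 tables, 1 point a gene and a bar at the median. Red points were called higher in KO, blue points lower, and grey points were not called; under doxorubicin the medians are 0.77 for antigen presentation, 0.57 for NRF2 targets, 0.42 for cholesterol and fatty acid synthesis and -0.21 for G2/M genes.

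A few 2-fold calls under doxorubicin went against another table or stood in it alone, and the genes named here were chosen after their values were seen. Of the 2-fold higher genes 8 were called higher in none of the other 3 tables, and of the 2-fold lower genes 15 were called lower in none. SOX9, a transcription factor of progenitor cells, was called higher under doxorubicin (10.4 FPKM in KO, 4.42 FPKM in WT) and lower in control (16.4 FPKM in KO, 33.1 FPKM in WT), cisplatin (14.5 FPKM in KO, 28.5 FPKM in WT) and tunicamycin (8.81 FPKM in KO, 17.3 FPKM in WT). ELOVL6 was called under doxorubicin only, while it had 25.96 FPKM in KO and 20.9 FPKM in WT in control. IGFBP1, a binding protein of insulin-like growth factors, was called lower under doxorubicin (9.02 FPKM in KO, 24.6 FPKM in WT) and cisplatin (26.3 FPKM in KO, 31.6 FPKM in WT), and higher in control (60.2 FPKM in KO, 43.3 FPKM in WT) and tunicamycin (89.3 FPKM in KO, 37.5 FPKM in WT).

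Some of the genes lowered under doxorubicin also had low levels in both genotypes there. TNFRSF12A had 4.45 FPKM in KO and 20.3 FPKM in WT under doxorubicin, and between 167 and 268 FPKM in the 6 groups of the other tables. The nucleolar protein GNL3 had 2.54 FPKM in KO and 7.05 FPKM in WT under doxorubicin, against 69.7 FPKM in KO and 82.7 FPKM in WT in control. The histone mRNA binding protein SLBP had 1.13 FPKM in KO and 5.47 FPKM in WT under doxorubicin, against 52.2 FPKM in KO and 57.6 FPKM in WT in control. The cohesin subunit SMC3 had 2.21 FPKM in KO and 5.55 FPKM in WT under doxorubicin, against 47.7 FPKM in KO and 56.5 FPKM in WT in control. Levels set across tables depend on separate normalizations and were not tested. Other genes kept their ratio at a changed level, such as NR1D2, which had 1.91 FPKM in KO and 20.1 FPKM in WT in control.

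Neighbouring genes shared shifts over long stretches of some chromosomes. Among 276 windows of 10 Mb with 10 or more genes, 40 had a median log2 ratio of 0.3 or more in size, 13 higher and 27 lower in KO, and 36 of them had the same sign in all 3 other tables. On chromosome 13 the 6 such windows between 30000001 and 120000000 had medians of 0.55 to 1.03. On chromosome 7 the 3 windows between 1 and 30000000 had medians of -1.02 to -0.65, and on chromosome 9 there were 8 windows with medians of -0.47 to -0.30. The shifted windows held 11.8% of the tested genes of 5 FPKM or more and 144 of the 551 2-fold calls (26.1%). Gene copy number was not measured, and its part in these shifts was not tested.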

How the data were processed

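RNA-seq libraries were prepared from DNase-treated total RNA with an mRNA kit and sequenced paired-end, per the labels' protocols. The extraction text mentions fibroblasts although every sample is labelled MDA-MB-231. FastQC 0.11.5, Trimmomatic 0.35, STAR 2.5.3, Cufflinks, Cuffdiff and build hg38 appear in the submitters' processing notes. Their roles, the annotation release and any use of strand are not stated there, so genes overlapping on opposite strands are uncertain. Overlaps are given above for some named genes only. CBR4, XPC and CLOCK, among others, also overlap exons of genes with higher levels than their own.

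Per the file headers, the doxorubicin table deposited by the authors holds 1 FPKM per group, in the layout of Cuffdiff output; the labels list 2 libraries per group. Their deposited log2 column is KO over WT with no pseudocount, recomputed here to within 4.64e-05. A deposited score column holds the test statistic of Cuffdiff and was not used. The p-values and q-values are the authors' own; the smallest p was 5e-05, giving a q of 0.000186 shared by 3193 tested genes, so q does not rank them. The table's group codes are not explained in the labels; its first value was taken as WT and its second as KO from the order in which the table's own name gives the groups.

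Here, genes of 5 FPKM or more in one group were taken, log2((KO + 1)/(WT + 1)) computed, and calls made at q of 0.05 or less. The members and the 41 gene lists were chosen with earlier results of these data known. Named are tested members of the clock, topoisomerase, BCL2 and death receptor lists, the 15 largest called changes each way, and up to 5 called members each way per list. Some genes that this rule names are not reported here. A few more are named as not called or not tested, chosen after their values were seen. Windows of 10 Mb needed 10 genes with a mean of 1 FPKM. Positions are from GENCODE 29, matched by gene ID for 11817 of 11856 tested genes. Promoters are from RefSeq and matched 8663 tested genes. The search for CTGATTGG and the division by level and length were added after seeing the data. Counting of calls and window medians was tested on simulated data. Python 3.11.15, pandas 2.3.3 and NumPy 2.4.6 were used. Without library values no interval or leave-one-out fit could be computed, and depth per library is unknown.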

Additional observations from a re-analysis of the deposited data

How the results depend on the processing

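No paired analysis was possible because the deposited table gives 1 value per group and no value per library, and for the same reason no library could be left out. Of 5348 calls, 2458 were lower in KO; among genes with a mean of 5 FPKM or more 1548 were. The 2-fold lower genes numbered 293 and, with a floor of 10 FPKM, 162. The other 22 of the 24 alternative counts stayed within 1.5 times the main ones, 354 and 403 being the 2-fold higher and lower counts without a floor. Log2 ratios of named genes that were called kept their sign after centring, a small shift of -0.042. Those of CRY1, RBBP8 and TOP1MT, not called, changed sign after centring. A pseudocount of 0.1 cannot change a sign, so it is no check of direction. The larger shift to equal sums was not applied to the ratios of single named genes. List medians changed sign in 26 cases, kept their value to within 0.1 in 137 and moved by more in 42. After setting one FPKM sum without mitochondrial genes the medians became -0.23 for clock repressors and outputs, -0.11 for topoisomerases, -0.12 for double-strand break repair, -0.25 for the BCL2 family, -0.16 for G1 regulators, -0.22 for S-phase, -0.17 for interferon-stimulated genes, -0.019 for the ATF6 and XBP1 response, -0.089 for glycolysis, -0.25 for hypoxia, -0.18 for mitochondrial mRNAs, -0.048 for integrins, -0.16 for EMT, -0.18 for Notch, -0.012 for complex I, -0.023 for ribosomal proteins and -0.076 for the proteasome. These changes of sign follow from the rescaling, which moves abundant genes by -0.31 and low genes by less. With a mean of 5 FPKM or more, which leaves fewer genes, medians became 0.078 for the clock positive arm, -0.13 for death receptors, 0.017 for caspases, -0.0804 for S-phase, -0.0514 for hypoxia, -0.25 for EMT and 0.23 for the ERBB list. Without genes in shifted windows they became 0.12 for cytokines and 0.000445 for ATF4 targets. Without library values or counts, what depth limits cannot be told from these data.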

Other observations

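Genes with the largest ratios of all were not called. AC006115.1 had 24196 FPKM in KO and was listed at 0 in WT, and the mitochondrial transfer RNA gene MT-TV was listed at 0 in KO and had 35600 FPKM in WT. MT-TV counts toward the share of FPKM from the mitochondrial genome, which was 11.1% in KO and 17.0% in WT. AC006115.1 counts toward the KO sum without mitochondrial genes, so it makes the shift to equal sums, -0.31, larger in size. The shift without AC006115.1 was not computed.

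Low values under doxorubicin often shared one ratio. For 1194 genes under 0.05 FPKM in both groups, the most frequent ratio of KO over WT was 1.27, held by 20.5% of them within a bin of 0.1 on the log2 scale. The 5th percentile of values above 0 was 0.0175 FPKM in KO and 0.0141 FPKM in WT.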
